A study of Rattus norvegicus with 31 samples.

Results

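The genes described here encode the proteins of the cytosolic ribosome. They were taken by symbol from the gene count matrix of a rat (Rattus norvegicus) study of kidney cortex and colon: every symbol made of Rpl or Rps and a number, with or without a letter after it, plus Rplp0, Rplp1, Rplp2 and Rpsa, and without the Rps6k kinases. This gave 84 of 20207 genes. The kidney cortex and the colon were each sampled in a high-salt diet group given calcitriol, the active hormone form of vitamin D (CAL), a high-salt model group (HS) and a normal control group (NC). There were 6 CAL, 5 HS and 5 NC colon libraries and 6 CAL, 4 HS and 5 NC cortex libraries, 31 in all. CAL and HS rats both received high salt, and NC rats received neither agent. Strain, age, sex, dose, salt content and duration were not given in the sources used here. Nothing states whether libraries came from separate animals, so p-values measure the spread between these libraries.

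The cytosolic ribosome has a small (40S) subunit, which holds the Rps proteins and Rpsa and on which the mRNA is read. It also has a large (60S) subunit, whose Rpl proteins surround the site of peptide bond formation. Rplp0, Rplp1 and Rplp2 form the stalk on the 60S subunit that recruits translation factors. Ribosomal protein mRNAs are among the most abundant in most cells, and in mammals they begin with a 5′ terminal oligopyrimidine (TOP) tract, a C followed by a run of C and T, through which the kinase complex mTORC1 and the protein Larp1 control their translation. In colon, crypt cells divide continuously and secretory cells make much protein. In kidney cortex, most cells are long-lived tubule cells rich in mitochondria.

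Start sites were read from RefSeq promoters (build GRCr8), which had 1 entry for 63 of the 84 members. The 10 below were chosen from the members with the smallest p between tissues in NC rats (Rps27, Rps15a, Rpl27a, Rps23, Rps16, Rpl3), the stalk base (Rplp0), a tract close to the start (Rpl10) and paralogs with small or no differences (Rpl22l1, Rpl7l1). Each run holds 30 bases before the annotated start and 20 from it onward, 5′ to 3′, and capitals mark a C that is followed by at least 4 bases each C or T and lies within 10 bases of the annotated start, up to the end of that stretch. Where several lay in this window only the one nearest the start is marked, and stretches outside it stay in lower case.
Rps27: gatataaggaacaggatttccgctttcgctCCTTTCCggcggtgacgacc
Rps15a: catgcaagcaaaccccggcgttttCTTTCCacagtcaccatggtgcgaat
Rpl27a: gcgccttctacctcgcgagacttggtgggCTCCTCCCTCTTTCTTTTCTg
Rps23: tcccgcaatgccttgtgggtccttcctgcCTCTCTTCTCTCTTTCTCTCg
Rplp0: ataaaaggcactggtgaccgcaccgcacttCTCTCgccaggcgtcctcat
Rpl10: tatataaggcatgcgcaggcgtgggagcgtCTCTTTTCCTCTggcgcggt
Rps16: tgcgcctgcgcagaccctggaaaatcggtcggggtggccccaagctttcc
Rpl3: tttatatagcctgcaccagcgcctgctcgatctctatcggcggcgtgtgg
Rpl22l1: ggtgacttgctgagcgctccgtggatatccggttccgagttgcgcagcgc
Rpl7l1: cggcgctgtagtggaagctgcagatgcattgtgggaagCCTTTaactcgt
Rps27 lay at chr2:177964587-177964636 (minus strand), Rps15a at chr1:181860265-181860314 (minus strand), Rpl27a at chr1:172974543-172974592 (plus strand) and Rps23 at chr2:23814487-23814536 (plus strand). Rplp0 lay at chr12:46718371-46718420 (minus strand), Rpl10 at chrX:157205820-157205869 (plus strand), Rps16 at chr1:92770628-92770677 (plus strand) and Rpl3 at chr7:113507971-113508020 (minus strand). The paralog Rpl22l1 lay at chr2:113683166-113683215 (plus strand) and Rpl7l1 at chr9:21695688-21695737 (plus strand).

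A tract of this kind, with its C within 10 bases of the annotated start, was present on the sense strand in 45 of the 63 members (71.4%). It was present in 27.5% of all 24206 promoters and in 34.5% of 58 mitochondrial ribosomal protein promoters. On the other strand the corresponding shares were 19% of the members and 33.7% of all promoters. The annotated start may miss the used one by some bases, so the absence of a tract in this window says only that these letters were not there.

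Libraries were shallow. Totals ran from 267976 to 918820 counts in colon and from 289529 to 2265164 in cortex, and a count of 0 allows up to 11.2 counts per 1e6 counts (CPM) in the shallowest library. Markers of each labelled tissue were high there: summed goblet cell markers were 6227 to 15000 CPM in colon and 0 to 13.82 CPM in cortex, and summed proximal tubule markers were 0 to 35.03 CPM in colon and 4310 to 6969 CPM in cortex. Colon HS replicates 3 and 4 had the highest summed B and plasma cell markers (940.1 and 1730 CPM), and colon HS replicate 2 had the highest summed smooth muscle markers (16060 CPM). In bulk tissue, fewer cells of a type and less RNA per cell cannot be told apart.

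Of the 84 members, 71 passed the filter on low counts over all libraries, and 13 did not. Rps6, the 40S protein phosphorylated downstream of mTORC1, had 3 counts in all 31 libraries together. Rplp2, the partner of Rplp1 in the stalk, had 2, and the 60S genes Rpl35a, Rpl7a, Rpl38 and Rpl8 had 3, 10, 35 and 59. Rpl10a and Rpl23a had none. The paralogs Rpl10l, Rpl3l, Rpl39l and Rps10l1 had 99, 11, 5 and 18 counts, and Rpl9 had 115. Most of these genes are needed in every cell, so the near absence of counts is not read here as a low level. How reads with several matches were treated was not stated, and the part of that step in these values was not tested.

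Other rows carried the names of copies of members. Of 609 rows with a LOC number that RefSeq now lists, 27 carried the current name of a copy of 1 of 18 members, and 25 of these 27 are classed as pseudogenes. Rpl9, a 60S protein, had 115 counts, while 2 rows now named as Rpl9 copies had 13109, most of them on LOC100360449 (Rpl9-ps31, 13057 counts). Rps29, a small zinc-binding 40S protein, had 547 counts, and its 3 copies had 13440. Together these 27 rows held 5.67% as many counts as the members, which is not the total of all copies. The matrix had 1352 rows with a LOC number, of which only the 609 could be matched. Copies of genes that are not among the members, such as Rps14-ps7, were left out. Values of Rpl9, Rps29, Rpl39 and other members with near-identical copies are uncertain, since how reads were divided among such rows is not given in the sources used here.

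Ribosomal protein genes held a larger part of the counts in colon than in cortex, in every group. They made up 2.655% to 6.725% of all counts in colon libraries and 1.384% to 2.145% in cortex libraries, so the tissues did not overlap. The median colon shares were 4.55% in CAL, 3.929% in HS and 3.687% in NC, and the cortex medians were 1.686%, 1.607% and 1.68% in the same groups. The diet groups overlapped within each tissue. Mitochondrial ribosomal protein genes, which build the separate ribosome of mitochondria, ran the other way, at 0.4595% to 0.7657% of counts in colon and 0.7066% to 0.8545% in cortex.

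The balance between the subunits also differed. The ratio of 40S to 60S gene counts was 0.7264 to 1.031 in colon and 0.6668 to 0.7566 in cortex. Only colon HS replicate 4, the lowest colon library, fell within the cortex range. These ratios depend on which members were counted, since 60S genes such as Rpl9 and 40S genes such as Rps6 were nearly missing. Rps14, Rps19 and Rpl22 had no row under these symbols, so the 84 members do not cover the whole ribosome.

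**Figure D1:**
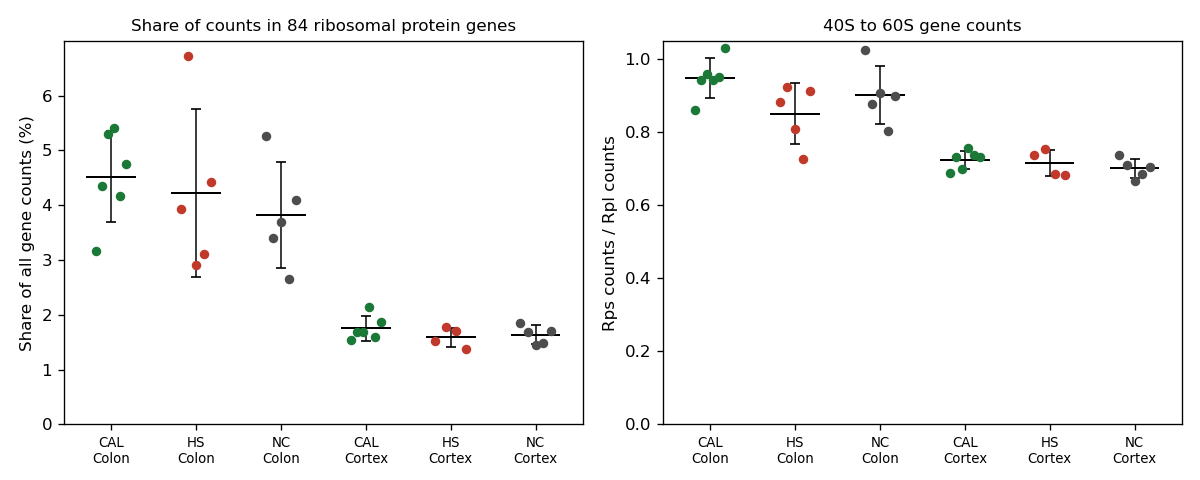
Left, percent of all gene counts held by the 84 ribosomal protein genes in each library (points), with mean and SD (bars), for colon and then cortex; right, counts of 40S genes divided by counts of 60S genes on the same layout. Colon libraries lie between 2.655% and 6.725%, all above the cortex libraries, which reach 2.145%.

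In NC rats, 64 of the 71 tested members were higher in colon than in cortex and none was lower (edgeR quasi-likelihood test over all genes, adjusted p under 0.05), where 30.4% of all 9128 tested genes were higher. The median log2 fold change, colon over cortex, was 1.13 for the members and 0.0591 for all genes. Levels of 51 members did not overlap between the tissues and were higher in colon, against 24% of all genes. In HS rats 64 of 71 were higher (all genes 28.7%; median 1.35), and in CAL rats 64 of 71 (all genes 32.2%; median 1.31), with none lower in either. These 3 comparisons share no library, and 61 members were higher in colon in all of them. The NC count was 59 to 65 when any 1 library was left out, so no library decides it.

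Rps27, a zinc-binding 40S protein, had 3393, 1576, 1828, 1205 and 2467 TMM-scaled CPM in NC colon, against 645, 600.0, 478, 459 and 636 in NC cortex. All colon libraries lay above all cortex libraries, and the log2 fold change was 1.89 (SE 0.256, adjusted p = 8.72e-08). Rps15a, a 40S protein, had 933, 603, 596, 386 and 641 CPM in NC colon, against 207, 209, 118, 143 and 189 in NC cortex (log2 fold change 1.86, SE 0.254, edgeR adjusted p = 1.09e-07). The tissues did not overlap for either gene. Rps16, whose tail reaches the decoding site of the 40S subunit, averaged 1621 ± 593 CPM in NC colon and 487 ± 67.9 in NC cortex (SD, n = 5 each; log2 fold change 1.73). Rpl3, a core 60S protein near the peptidyl transferase centre, averaged 1705 ± 307 in NC colon and 809 ± 96.2 in NC cortex (SD, n = 5 each; log2 fold change 1.07).

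Of the 10 members with the smallest p in NC rats, 7 encode 40S proteins. The others of the 40S subunit were Rps23, at the decoding centre, with a log2 fold change of 1.61, Rps3a with 1.63, Rps12 with 1.88 and the Rps19 copy Rps19l2 with 1.68. The 60S gene Rpl27a had 1.52. Over all tested members, 29 of 31 40S genes and 35 of 40 60S genes were higher in NC colon. The median log2 fold change was 1.36 for the 40S genes and 1.07 for the 60S genes. It was 1.38 and 1.17 in HS rats and 1.55 and 1.23 in CAL rats, a description with no test of the difference between subunits.

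The stalk proteins and Rpsa had smaller tissue differences than the median member in NC rats. Rplp0, the stalk base, had 2651, 1908, 2220, 1637 and 2154 CPM in NC colon, against 1468, 1344, 1174, 1144 and 1365 in NC cortex. The groups did not overlap, and the log2 fold change was 0.70 (SE 0.179, edgeR adjusted p = 0.00107), compared with 1.39 in HS and 1.01 in CAL rats. Rpsa, the 40S protein also known as the laminin receptor, had a log2 fold change of 0.47 in NC rats (SE 0.194, edgeR adjusted p = 0.0379), 1.21 in HS and 0.89 in CAL. Rplp1 did not pass in NC rats (0.54, edgeR adjusted p = 0.0731) and was higher in colon in HS (0.80) and CAL rats (0.95).

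Rpl5 and Rpl11, which with the 5S RNA can bind Mdm2, the E3 ligase of p53, were higher in colon in each group. Their log2 fold changes were 0.89 and 0.88 in NC, 0.93 and 1.18 in HS and 1.07 and 1.06 in CAL rats. Rps27a, made as a fusion with ubiquitin, was higher by 1.26 in NC, 1.36 in HS and 1.43 in CAL rats.

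The exceptions were 5 members: Rps4y2, Rpl7l1, Rpl29, Rps9 and Rpl30l1 passed in no group. Rps4y2, a copy of the 40S gene Rps4, averaged 31.2 ± 6.12 CPM in NC colon and 46.2 ± 17.9 in NC cortex (SD, n = 5 each; log2 fold change −0.56, edgeR adjusted p = 0.176). Rpl7l1, a paralog of Rpl7, averaged 35.0 ± 7.93 in NC colon and 38.2 ± 6.84 in NC cortex (SD, n = 5 each), while Rpl7 itself was higher in NC colon (log2 fold change 0.71, SE 0.185, edgeR adjusted p = 0.00134). Rpl29, a 60S protein, had log2 fold changes of 0.24 in NC, 0.44 in HS and 0.27 in CAL rats. Rpl22l1, the paralog of Rpl22, passed in NC rats alone (0.75, edgeR adjusted p = 0.0361), with 0.04 in HS and 0.48 in CAL rats, and its HS effect, colon minus cortex, did not pass (−0.71, adjusted p = 0.513). Rps27l, a paralog of Rps27 known as a p53 target, was higher in colon in each group (1.22 in NC, 0.90 in HS, 1.10 in CAL).

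Rps9, a 40S protein, varied among libraries of 1 group more than between tissues. It had 125, 4.49, 10.4, 1.26 and 0 CPM in NC colon, against 8.76, 2.72, 1.82, 92.5 and 10.2 in NC cortex. In HS it had 110, 8.47, 2.59, 2.32 and 193 CPM in colon and 22.1, 32.1, 41.8 and 0 in cortex. Single libraries stood far above the rest in both tissues, and the SE of the log2 fold change in NC rats was 1.13.

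**Figure D2:**
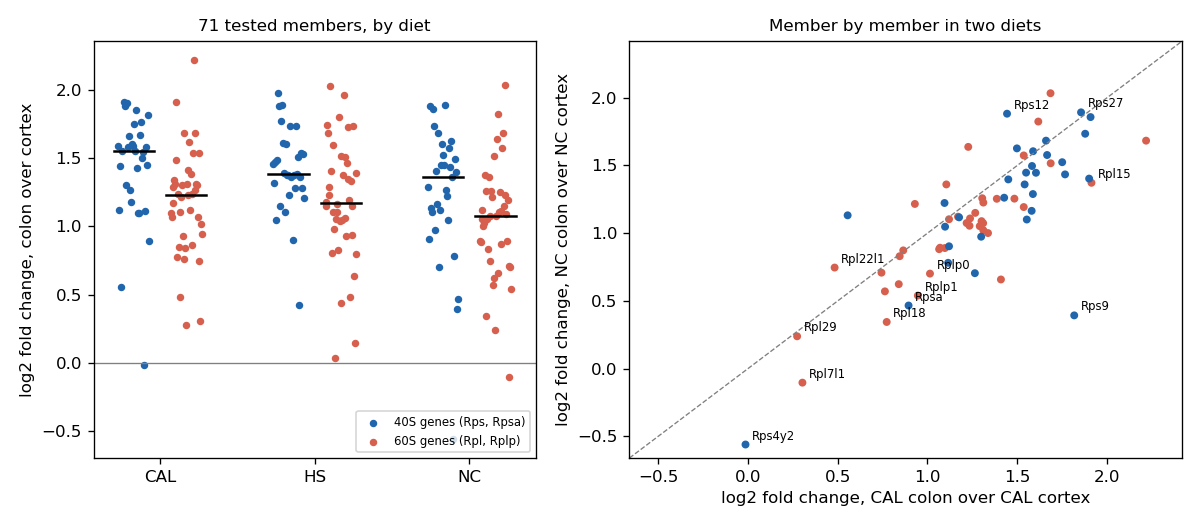
Left, log2 fold change of colon over cortex for each of the 71 tested members in CAL, HS and NC rats, split into 40S and 60S genes, with the median as a bar; right, the CAL values against the NC values, with equality dashed. Nearly all points lie above 0 and the 40S medians (1.55, 1.38 and 1.36) lie above the 60S medians (1.23, 1.17 and 1.07), while Rps4y2 and Rpl7l1 lie at or under 0 in NC.

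Members with a larger tissue difference in 1 group tended to have a larger one in the others. Over the 69 members tested in both tissues, Pearson's r of the log2 fold changes was 0.676 between HS and NC. It was 0.799 between CAL and NC and 0.83 between CAL and HS. An r does not compare sizes, which differed for some members, such as Rpsa (0.47 in NC and 1.21 in HS). These r describe genes, which are not independent. The comparisons within a pair share no library. Each pair has a diet group in common with every other pair, and all come from the same fit, so the r are not separate repeats. Members with and without a tract at the start did not separate in NC rats: the median log2 fold change was 1.14 in the 40 with a tract (from −0.56 to 2.03) and 1.11 in the 15 without (from 0.34 to 1.88). Rps16 and Rpl3, printed above with no tract in the window, were higher in colon, and Rpl7l1, which has a tract, was not.

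Of the 27 copy rows, 7 passed the filter on low counts over all libraries. In NC rats all 7 were higher in colon, in CAL rats 7 and in HS rats 6, against the shares of all genes given above. Summed per member, copy CPM overlapped between the tissues for all 18 members over all libraries. LOC100360449 (Rpl9-ps31) was higher in colon by 1.35 on the log2 scale in NC rats (SE 0.308, edgeR adjusted p = 0.000312), and LOC108352650 (Rps29-ps16) by 0.94 (SE 0.26, adjusted p = 0.00227). LOC100911847, now named Rps14-ps7, is not among these 27 rows and was chosen after its values were seen, for its r with the members given below; it was higher by 1.84 (SE 0.261, adjusted p = 2.12e-07).

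Other translation genes shared the direction in part. Of 13 tested TOP mRNA partners, 8 were higher in NC colon and none was lower, among them Tpt1, an abundant TOP mRNA (log2 fold change 1.14), and Pabpc1, the poly(A)-binding protein (1.29). Of 9 elongation factor genes 5 were higher and none lower, including Eef1b2 (1.35) and Eef1g (0.99), subunits of the complex that recharges eEF1A with GTP. Ribosome biogenesis factors went both ways, with 4 higher and 8 lower of 38. Sbds, which helps release the 60S subunit for use, was higher (0.66), and Utp4, of the 40S processome, was lower (−2.05). Of 28 mTORC1 and TOP regulators 6 were higher and 8 lower, with Castor1, an arginine sensor, and Sesn2, a leucine sensor, lower (−3.17 and −2.02) and the Myc partner Max higher (3.02). Among 68 mitochondrial ribosomal protein genes 1 was higher and 39 were lower, among them Mrps25 (−1.61). Of all tested genes, 30.4% were higher and 28.4% were lower in NC colon. The median log2 fold changes of these lists were 0.58 for the TOP partners, 0.58 for the elongation factors, −0.17 for the biogenesis factors, −0.28 for the regulators and −0.63 for the mitochondrial ribosomal proteins, beside 0.0591 for all genes.

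High salt was compared with normal control in the cortex to see whether the model changes these genes. Of 69 members, 1 passed, and it was higher, where 7.35% of 7524 tested genes were higher, 3.69% were lower and 11% were called in either direction. Rpl7, a 60S protein, had 469, 522, 543 and 560 CPM in HS cortex, against 466, 487, 352, 330 and 435 in NC cortex. On this scale all but the lowest HS library lay above all NC libraries, while on the scale of the cortex fit the groups did not overlap. The log2 fold change in the cortex fit was 0.38 (SE 0.121, 95% interval 0.13 to 0.62, edgeR adjusted p = 0.0448). That call was lost when HS replicate 1, 2, 3 or 4, NC replicate 3, 4 or 5, or CAL replicate 3 was left out, and under several other settings. Rpl7 averaged 472 ± 32.9 in CAL cortex (SD, n = 6), with no call against HS (log2 fold change −0.18, edgeR adjusted p = 0.48) or NC.

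The members lower in HS did not pass. Rpl12 and Rplp0 form the base of the stalk. Rpl12 had 24.3, 76.4, 69.6 and 31.6 CPM in HS cortex, against 65.7, 91.7, 60.1, 84.5 and 121 in NC cortex (log2 fold change −0.75, SE 0.262, edgeR adjusted p = 0.0651). HS replicates 1 and 4 lay far below all NC libraries and the other 2 lay among them. Rplp0 had 836, 1097, 1149 and 902 CPM in HS cortex, against 1468, 1344, 1174, 1144 and 1365 in NC cortex (log2 fold change −0.35, SE 0.137, adjusted p = 0.102), and HS replicate 3 overlapped NC replicate 4.

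Rpsa had 325, 463, 327 and 389 CPM in HS cortex, against 568, 539, 487, 416 and 531 in NC cortex (log2 fold change −0.39, SE 0.14, edgeR adjusted p = 0.0733). The 60S genes Rpl18 and Rpl34 had log2 fold changes of −0.36 (adjusted p = 0.0702) and −0.35 (adjusted p = 0.11). Rpl34 was at 125.3 to 170.2 CPM in HS and 175.0 to 203 in NC cortex, without overlap, as were 5.64% of all genes in that direction. Over all 69 members the median was −0.0443, with 31 above 0 and 38 below, and 15.9% had an unadjusted p under 0.05, against 27.3% of all genes. Summed erythrocyte markers, which moved with this comparison, were 941.3 to 1722 CPM in HS and 3805 to 19630 CPM in NC cortex; their part in the result was not tested.

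**Figure D3:**
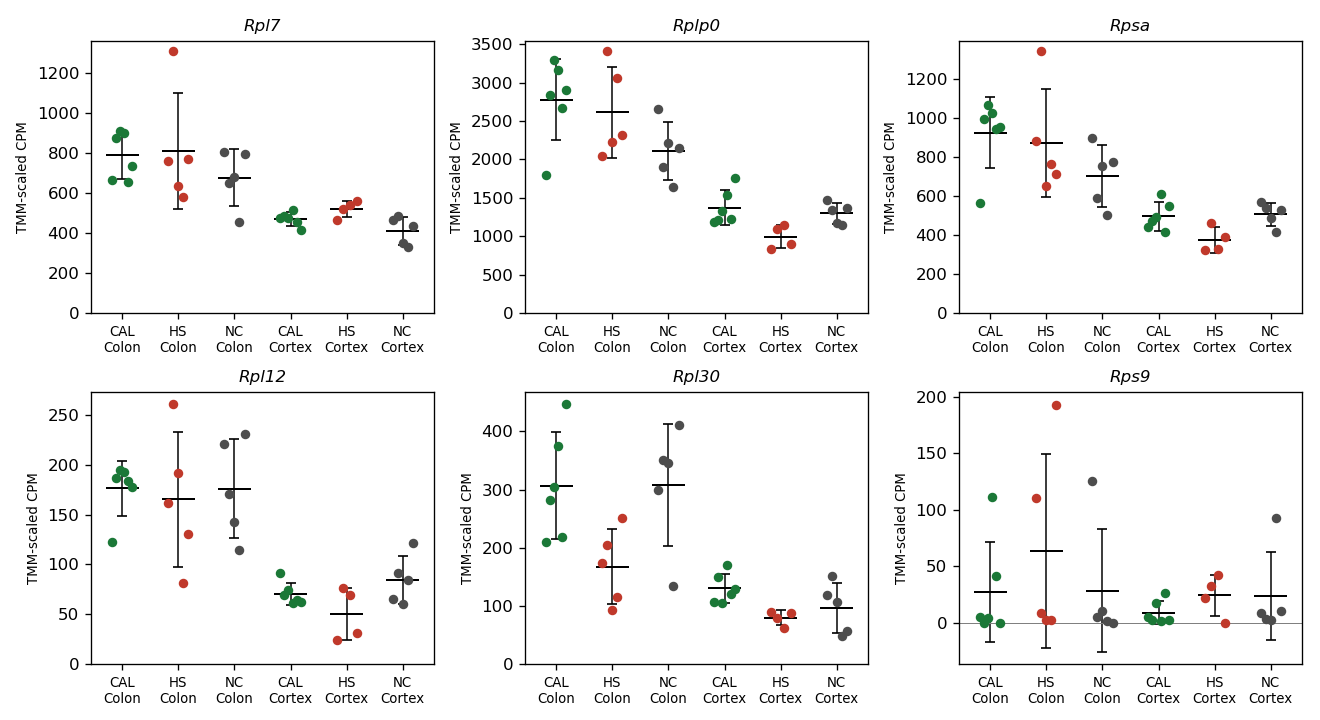
TMM-scaled CPM of Rpl7, Rplp0, Rpsa, Rpl12, Rpl30 and Rps9 in each library (points) with mean and SD (bars), by group. Rpl7 averages 524 in HS and 414 in NC cortex, Rplp0 averages 996 in HS and 1299 in NC cortex, and Rps9 is near 0 in most libraries and high in a few.

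Genes around the ribosome were counted in the same comparison, where 7.35% of all tested genes were higher and 3.69% were lower. No list was tested as a set. Of 13 TOP mRNA partners 4 were higher in HS and none lower, among them Eif4a2, a helicase of translation initiation (log2 fold change 0.56, SE 0.14, edgeR adjusted p = 0.0145), Npm1, a nucleolar chaperone (0.50), and Tpt1 (0.43). Of 36 biogenesis factors 1 was higher, Rpf2, which helps load the 5S RNA (1.05), and 2 were lower, Rrp9, of the U3 snoRNP, and Eif6, which holds the subunits apart (−0.50). Of 25 regulators 2 were higher and 1 was lower, close to the shares of all genes. Rheb, the GTPase that activates mTORC1, and Rragc, a GTPase of its lysosomal recruitment, were higher (0.61 and 0.48). Lamtor1, the lysosomal anchor of Rragc, was lower (−0.53). No elongation factor of 8 passed, and 2 of 68 mitochondrial ribosomal protein genes were higher and 2 lower. The list medians were 0.16 for the TOP partners, 0.06 for the biogenesis factors, −0.14 for the regulators, −0.08 for the elongation factors and −0.07 for the mitochondrial ribosomal proteins, beside −0.0096 for all genes.

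Calcitriol with high salt was compared with high salt alone in the cortex. No member of 69 passed, where 0.758% of all genes did. An unadjusted p under 0.05 was found for 6 members (8.7%), all higher in CAL, against 16.2% of all genes. Rplp0 had 1194, 1275 and 1766 CPM as lowest, median and highest in CAL cortex, against 836, 1097, 1149 and 902 in HS (log2 fold change 0.44, SE 0.133, edgeR adjusted p = 0.112). On this scale the lowest CAL library lay above the highest HS library, while on the scale of the cortex fit, which gave the p, the groups overlapped. Rpl30, a 60S protein, had 106, 125 and 170.0 CPM as lowest, median and highest in CAL, against 90.6, 79.4, 62.6 and 87.5 in HS (log2 fold change 0.64, SE 0.234, adjusted p = 0.18), and these groups did not overlap in the cortex fit, as was so for 1.87% of all genes in that direction. Rpsa (0.36, adjusted p = 0.191), Rpl34 (0.33, adjusted p = 0.235) and Rps28, a small 40S protein (0.37, adjusted p = 0.163), did not pass. Summed erythrocyte markers were 3536 to 6760 CPM in CAL and 941.3 to 1722 CPM in HS cortex, without overlap; their part in the result was not tested. This comparison and that of HS with NC share the HS libraries, so opposite signs in both are not separate evidence.

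Among the lists, Lamtor1 was higher in CAL cortex (log2 fold change 0.67, SE 0.161, edgeR adjusted p = 0.045) and Npm1 was lower (−0.57, SE 0.138, adjusted p = 0.0476). They were 1 of 25 regulators and 1 of 13 TOP partners, where 0.758% of all genes passed. CAL against NC in the cortex called no gene of 7524 (0%), members included, with 892 genes and 3 members at an unadjusted p under 0.05. The smallest p were for Rps4y2 (−0.85, edgeR adjusted p = 0.279) and Rps13, a 40S protein (0.80, adjusted p = 0.281).

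In the colon no diet comparison called a member. HS against NC called none of 71 members and 0% of 7217 genes, with 614 genes and 4 members at an unadjusted p under 0.05. Rpl30 had 174, 205, 93.3, 116 and 252 CPM in HS colon, against 299, 352, 345, 135 and 411 in NC colon (log2 fold change −0.86, SE 0.304, edgeR adjusted p = 0.449). All HS libraries lay below 4 of the 5 NC libraries. Summed erythrocyte markers were 64.92 to 389.3 CPM in HS and 446.7 to 2539 CPM in NC colon, and their part in the result was not tested. Rpl3 and Rpl10, a 60S protein that joins late in assembly, had 0.48 and 0.46 (adjusted p = 0.57 and 0.582). The median was 0.11 over the members; it was −0.13 without HS replicate 2 and 0.39 without HS replicates 3 and 4, the pair with the most B and plasma cell RNA, whose part in the result was not tested.

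CAL against HS in the colon called no member, where 0.0139% of genes were called, with 758 genes and 1 member at an unadjusted p under 0.05. That member was Rpl30, at 211, 294 and 447 CPM as lowest, median and highest in CAL, against the HS values above (log2 fold change 0.84, SE 0.295, edgeR adjusted p = 0.345). CAL against NC in the colon called none of the members and 0% of genes, with 278 genes and no member at an unadjusted p under 0.05. There 63 of 71 members had a positive log2 fold change, with a median of 0.21, against 0.00497 for all genes. That median ran from 0.0699 to 0.343 over the other settings and with libraries left out. Members moved together among colon libraries (median pairwise r 0.772), so these signs are not separate observations. Rplp0 had 0.38 with a 95% interval from −0.07 to 0.83. The median SE of a member was 0.279 in this comparison, so a change of the size seen for Rpl7 in cortex was within the error here.

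**Figure D4:**
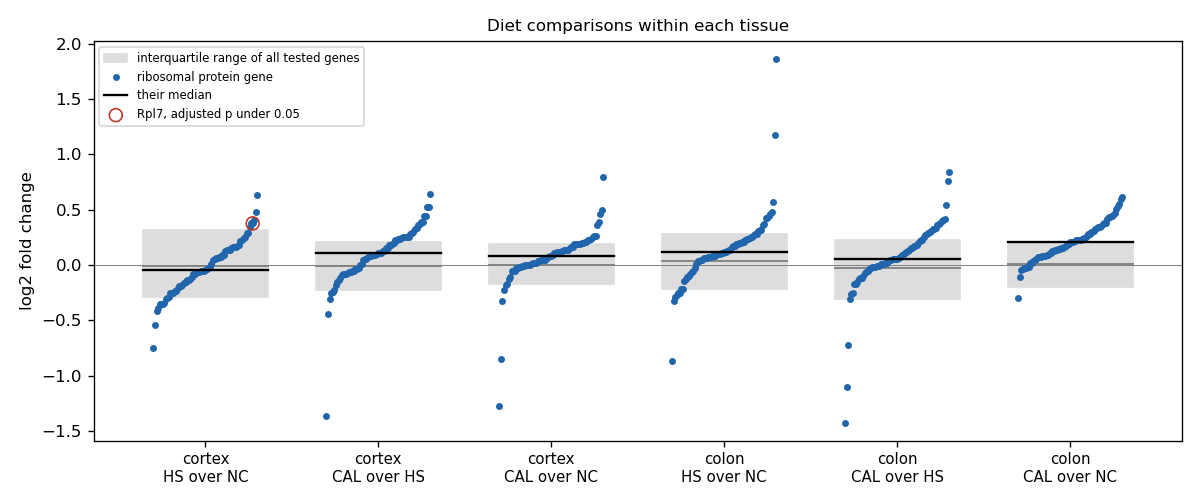
Log2 fold change of each tested ribosomal protein gene (points, sorted, with the median as a black bar) in the 6 diet comparisons, over the interquartile range of all tested genes (grey) with its median. Only Rpl7 in HS over NC cortex is called, at 0.38, and the member medians run from −0.0443 to 0.21.

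Whether the effects of diet differed between the tissues was tested in a fit over all 31 libraries. No member of 71 was called for the HS effect, colon minus cortex, where 0.0219% of genes were. Rplp0 had a difference of 0.69 (SE 0.261, edgeR adjusted p = 0.243) and Rpsa 0.74 (SE 0.284, adjusted p = 0.245), both being positive in colon and negative in cortex. For the CAL against HS effect no member and 0% of genes were called, with 878 genes and no member at an unadjusted p under 0.05.

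Within groups, the members of a library moved together. After subtracting each group's mean, the median pairwise r over libraries was 0.772 for 71 members in 16 colon libraries and 0.425 for 69 members in 15 cortex libraries. It was 0.219 in colon and 0.0683 in cortex for mitochondrial ribosomal protein genes, and near 0 for all tested genes (−0.00288 and −0.000896). These r are descriptions over libraries that share depth and scaling. Mitochondrial ribosomal protein genes also held fewer counts than the members, and the part of counting error in these r was not tested.

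Single libraries carried most of the spread. In colon HS replicate 2, 70 of 71 members lay above the group mean, with a median deviation of 0.813 on the log2 scale. This library also had the highest smooth muscle sum. The next highest sums, in colon HS replicate 5 and NC replicates 3 and 2 (10850, 10500 and 9252 CPM), came with deviations of 0.12, −0.0275 and −0.143. In colon HS replicate 4, 64 of 71 lay below (median −0.649), in CAL replicate 1, 68 (−0.579), and in NC replicate 4, 69 (−0.483). In NC replicate 1, 69 lay above (0.51). Cortex libraries spread less, from −0.253 in HS replicate 4 to 0.29 in CAL replicate 4. The part of tissue sampling or RNA quality in these deviations was not tested.

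Among the genes that followed the rest closely in colon were Rps3 and Rps27, 40S proteins, with r of 0.976 and 0.97 against the median of the other members. Rps4y2 (0.0813), Rpl7l1 (0.303), Rpl30l1 (0.341) and Rps9 (0.374) followed least, and Rps4y2, Rpl7l1 and Rps9 were also the lowest in cortex (0.104, −0.17 and 0.0607). Among the genes outside the list, LOC100911847 (Rps14-ps7) had the highest r with the members' median in colon (0.944), and Eef1b2 had 0.939. In cortex Tmsb4x, which binds actin monomers, was highest at 0.929, with LOC108352650 (Rps29-ps16) at 0.897.

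**Figure D5:**
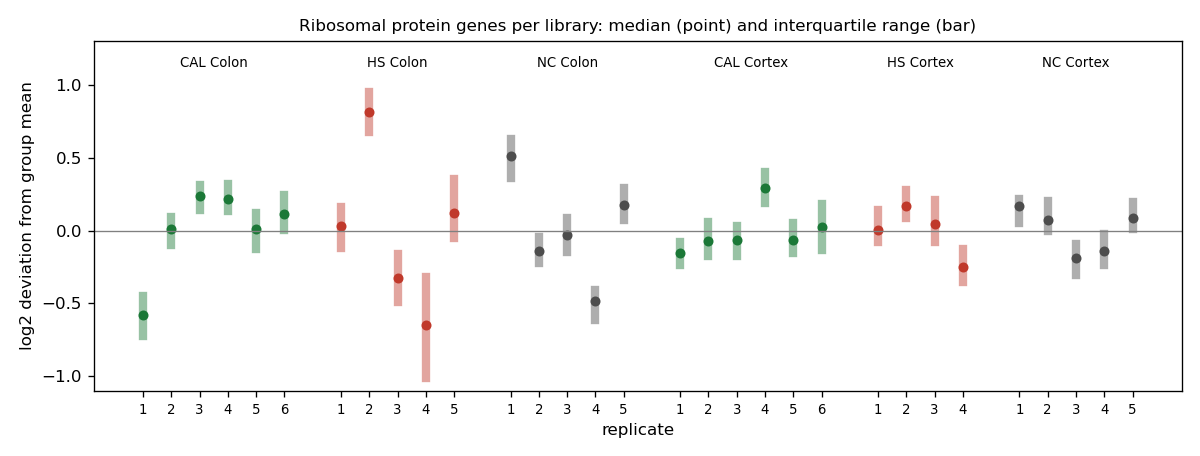
Deviation of ribosomal protein genes from their group's mean in each library, as the median (point) and interquartile range (bar) over 71 colon or 69 cortex members, on the log2 scale. Colon medians run from −0.649 to 0.813 and cortex medians from −0.253 to 0.29.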

How the data were processed

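RNA was extracted with TRIzol, libraries were made by tagmentation, which does not mark the strand, and sequenced on a NextSeq 500, per the labels' protocols. Per the submitters' processing notes, FastQC 0.11.9, Trimmomatic 0.39, HISAT2 2.1.0 and featureCounts 1.6.5 were used with Rnor_6.0; the annotation and the handling of multiply matching reads are not given in the sources used here. The deposited values are raw counts per gene by the authors. Genes were filtered (filterByExpr, minimum count 10, total 15), TMM-scaled and tested with edgeR 4.0.16 in R 4.3.3 by quasi-likelihood, per tissue over 3 groups, and over all 31 libraries for tissue contrasts and interactions, with Benjamini-Hochberg adjustment over all genes tested at 0.05. Levels are TMM-scaled CPM of the fit over all libraries. HS and CAL colon against cortex were added after seeing the data. Fits were tested on simulated data. Alternatives used DESeq2 1.42.0 and limma 3.58.1. Named members are those past the threshold with the smallest p (up to 10 each way, or the 5 nearest), the stalk, regulatory members and paralogs. Members and lists were chosen with earlier results of these data known. Some members that the rule would name are not reported here. Start sequences are from RefSeq. Intervals of log2 fold changes come from the edgeR SE, which includes the spread between libraries. Floors (3 counts) cover counting error only.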

Additional observations from a re-analysis of the deposited data

Results flagged for a closer look

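Across 150 sets of libraries looked at (3 summaries and a part of the named members, in 6 groups), 20 had 1 library far from the others. By chance about 1 in 20 is flagged. The sets share libraries and the members moved together, so the 20 flags are not separate observations and cannot be weighed against that rate. Of these, 8 were CAL colon replicate 1, which lay low: the median deviation of the members was −0.579 on the log2 scale (the others 0.00852 to 0.238), Rpl11 had 360 CPM (others 604 to 715), Rpl12 122 (177 to 194), Rpl18 594 (1152 to 1414), Rpl22l1 79.2 (159 to 176), Rps27a 413 (576 to 649), Rps27l 275 (452 to 543) and Rpsa 564 (944 to 1068). CAL cortex replicate 4 lay high for Rpl11 (394, others 244 to 282), Rpl34 (239, others 162 to 182), Rpl5 (281, others 225 to 242) and Rps12 (94.8, others 36.7 to 47.2). Colon HS replicate 2 lay high for Rpl29 (267, others 131 to 165) and Rpl7 (1311, others 582 to 771).

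Single genes stood apart in other libraries. Rpl3 was at 975 CPM in NC cortex replicate 1 (others 738 to 806), Rpl7l1 at 55.4 in CAL cortex replicate 1 (others 25.7 to 36.1) and Rps4y2 at 51.1 in CAL colon replicate 2 (others 13 to 26.1). Rps9 was at 111 in CAL colon replicate 4 (others 0 to 40.8), 125 in NC colon replicate 1 (others 0 to 10.4) and 92.5 in NC cortex replicate 4 (others 1.82 to 10.2).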

How the results depend on the processing

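The tissue counts kept their size: 59 to 65 of 71 in NC, 61 to 65 in HS and 64 or 65 in CAL rats when any 1 library was left out, and 61 to 66 under the other settings. The HS count in cortex did not. It was 0 with DESeq2 size factors, with TMM factors without the members, at 1 CPM in at least 4 libraries, with the replicate block and with the compared groups only, 2 with DESeq2 (Rpl7 and Rpl18), 4 with limma voom weights (Rpl7, Rpl12, Rpl18, Rplp0), and 0 to 2 when 1 library was left out; the cause was not tested. The 1 gene called was Rpl12 without a filter and Rpl36 after thinning to the shallowest library. DESeq2 called 1 member, Rplp0 (adjusted p = 0.0473), in CAL against HS cortex, where the other settings called 0. The other 6 diet and interaction counts were 0 under every setting run.

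Signs reversed only for members not called. CAL against NC colon (log2): Rpl26 0.00179 and Rpl21 0.0117 with voom weights, Rpl21 0.0434 with the replicate block. Leaving out 1 library gave Rpl13 −0.159 to 0.0584, Rpl21 −0.158 to 0.138 and Rpl26 −0.225 to 0.0603. Cortex: Rpl6 was 0.000841 after thinning in CAL against NC, Rps9 was −1.79 to 0.57 and, in CAL against HS, Rps29 was −0.76 to 0.0797, with 1 library left out. Without colon HS replicates 3 and 4 (added after seeing the data), Rpl21 was 0.0134, Rps23 0.0834, Rps12 0.0693 and Rps27l 0.0762 in HS against NC, and Rps24 −0.0363 and Rps25 −0.0742 in the CAL against HS effect between tissues. Colon against cortex: Rps4y2 in CAL was 0.106 with voom weights, 0.223 thinned, 0.0171 with the replicate block and −0.285 to 0.244 with 1 library left out; Rpl7l1 in NC was 0.122 thinned and −0.19 to 0.0289.

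Libraries with the same replicate number were compared with those of different numbers. In cortex, r was over 0.1 in 0 of 13 same-number pairs and 5 of 61 others. In colon it was so in 4 of 15 and 16 of 70, and across tissues in 1 of 15 and 0 of 66. Across tissues the median r was 0.0446 for the same number (highest 0.173) and −0.00608 for different numbers (highest 0.0943). No known pair was available to set the cut of 0.1, so these values cannot decide whether a number marks the same rat. The median SE of a member in HS against NC was 0.29 in colon and 0.164 in cortex on the log2 scale; median depth was 526500 and 632900 counts, and its part in this was not tested.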
